A study of Mus musculus with 2 samples.

Results

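The 10 genes described here are the secreted matrix proteins Npnt (nephronectin) and Egfl6, the integrin alpha subunits Itga8, Itga1, Itga5, Itga10 and Itga11, the integrin beta subunits Itgb1 and Itgb5, and the integrin-like gene Itgbl1. They are 10 of 31253 genes in the data and were listed by name, with earlier results of these same data known. Their levels by cell type are therefore given as a description. Mouse periosteum, the cell layer on the outer face of bone, was taken from femurs and tibias at 8 weeks, and sorted cells were profiled on the BD Rhapsody system in 2 libraries. The control library came from Prx1 Cre; Ai9/+ mice and the other from Prx1 Cre; Ai9/+; Piezo1 fl/fl mice, so both carried the Cre and the Ai9 reporter and differed in the floxed Piezo1 alleles. Prx1 Cre acts in limb mesenchyme, and the sort took Prx1-positive cells, but clusters with endothelial and macrophage markers were present in both libraries. The number of mice behind each library is not given in the sources used here. Each genotype has 1 library and so no replicates, and no test was made. A ratio between libraries compares those libraries, not the genotypes, and all 95% intervals cover counting error only.

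Integrins are cell surface receptors made of an alpha and a beta subunit that bind matrix proteins and connect them to the cytoskeleton. The alpha subunit largely sets the ligand, and the beta subunit encoded by Itgb1 pairs with many alpha subunits, among them those of Itga1, Itga5, Itga8, Itga10 and Itga11. Nephronectin and Egfl6 are related matrix proteins with EGF-like repeats and a MAM domain, and both are ligands of the receptor formed by Itga8 and Itgb1. Binding uses a short Arg-Gly-Asp motif. Nephronectin and Itga8 are known from kidney development, and both ligands and Itga8 from the hair follicle, where the muscle that raises the hair attaches.

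The coding sequence around the Arg-Gly-Asp motif is shown for both ligands because their binding to the receptor of Itga8 and Itgb1 uses it. The motif is not by itself a mark of Itga8 ligands. Both sequences are from GRCm38 with GENCODE vM21 models, read 5′ to 3′ on the coding strand, and capitals mark the codons of Arg, Gly and Asp.
Npnt: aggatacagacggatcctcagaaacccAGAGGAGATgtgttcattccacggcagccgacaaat
Egfl6: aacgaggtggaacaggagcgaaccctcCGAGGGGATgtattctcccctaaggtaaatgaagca
In Npnt the 9 bases lie at chr3:132904665-132904673 on the minus strand, in exon 8 of 12 of transcript Npnt-202, where the Arg is residue 382 of 561. In Egfl6 they lie at chrX:166538421-166538429 on the minus strand, in exon 8 of 12 of Egfl6-201, with the Arg at residue 360 of 550. Both printed stretches run on into the next exon. All 6 coding transcripts of Npnt and the 1 of Egfl6 held the motif 1 time each. The libraries count the 3′ ends of transcripts, so the values below do not tell the Npnt transcripts apart.

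In GRCm38 the Npnt gene spans chr3:132881745-132950291 and Egfl6 spans chrX:166523007-166585720. Itga8 lies at chr2:12106632-12301922, Itga1 at chr13:114953096-115101964 and Itga5 at chr15:103344286-103366763. Itga10 lies at chr3:96645584-96664519, Itga11 at chr9:62677826-62783982 and Itgb1 at chr8:128685654-128733200. Itgb5 lies at chr16:33829665-33949338 and Itgbl1 at chr14:123659971-123975618. Reads of Itga1 could be shared with Pelo and Gm49395, and those of Itga10 with Gm42957, which overlap them on the same strand. Itga8 overlaps the antisense gene E030013I19Rik and Itga1 the antisense gene Gm10734. The strand used in counting is not given in the sources used here, so these 3 alpha subunits carry some uncertainty.

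The control library held 28030299 UMIs in 6118 barcodes and the other library 32337308 in 7469, where a UMI (unique molecular identifier) stands for a captured mRNA molecule. After filters on genes, mitochondrial UMIs and doublets, 4418 and 5084 cells were kept, with medians of 4812.5 and 4593 UMIs. The libraries had 50 barcodes in common. Clusters were named from marker genes that exclude the 10 genes, and 9 types had at least 50 cells in both libraries. These were SSPC-1-like (806 and 886 cells) and SSPC-2-like cells (805 and 560), for the skeletal stem or progenitor populations that the study distinguishes, and tendon-like cells (213 and 343). Mural-like cells, the smooth muscle and pericytes of vessels, numbered 293 and 363, and endothelial-like cells 174 and 142. Fibroblasts led by Pi16 (826 and 647) or Gdf10 (777 and 1153), lining-like cells (56 and 123) and macrophage-like cells (415 and 434) made up the rest. A perineurial-like cluster of 33 cells was found in the control library alone. The SSPC-1-like clusters scored slightly higher for the tendon markers than for their own, 4.213 against 4.054 and 4.847 against 4.242 (control first) on a mean log2 scale, and were named by their leading genes, which included Col8a1, Fgf18 and Dio2. Angptl7, the gene by which the study labels SSPC-1, was not among the naming markers and was among the 10 leading genes of the tendon-like clusters instead. In finer clusters it was at 12100 CPM in control tendon-like and 2143 to 3997 in control SSPC-1-like cells, and at 2164 to 5854 and 1724 to 8241 in those of the other library. The SSPC-1-like cells need not be the cells that Angptl7 would mark as SSPC-1. Orders and ranges over types below are over the 9 types, and smaller clusters are given by name.

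Piezo1, the mechanosensitive ion channel whose alleles were floxed, was low in both libraries. It had 132 UMIs, or 5.18 CPM (UMIs of a gene per 1000000 UMIs of the type or group), in the kept control cells and 69 UMIs, or 2.42 CPM, in the Piezo1 fl/fl cells. SSPC-2-like cells had 37 and 5 of these UMIs (control first, as in all such pairs below), and SSPC-1-like cells 13 and 4. Which exons are floxed is not given in the sources used here, 3′ reads can lie outside a deleted part, and Piezo1 overlaps Ctu2 on the opposite strand, so the level checks the genotype only in part.

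The ligand genes were each concentrated in a few types. Npnt in the control library was highest in SSPC-1-like cells at 354.5 CPM (95% interval 338 to 372), followed by SSPC-2-like cells at 178.7 (168 to 190) and endothelial-like cells at 60.3 (42.9 to 82.4). Mural-like cells held 37.9 CPM, and the other 5 types 2.09 to 14.8. With types set cell by cell from detected markers, tendon-like control cells held 93.0 CPM, against 2.40 by cluster. In the Piezo1 fl/fl library the order differed, with SSPC-2-like cells at 162.5 CPM (149 to 177), endothelial-like cells at 162 (131 to 198), mural-like cells at 72.6 and SSPC-1-like cells at 64.1 (56.6 to 72.4). Here SSPC-2-like and endothelial-like cells were not apart, with a ratio of 1.00 (0.805 to 1.26), and several alternatives put endothelial-like cells first. Nor were mural-like and SSPC-1-like cells apart, with a ratio of 1.13 (0.904 to 1.41). SSPC-1-like cells supplied 54.5% of all Npnt UMIs in the control but 23.3% in the other library, while SSPC-2-like cells supplied 34.0% and 49.5%.

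A few cells carried many Npnt molecules. Npnt was detected in 40.4% of SSPC-1-like control cells, with a mean of 5.14 UMIs in those cells and up to 55 in 1 cell. For the Piezo1 fl/fl cells the share was 12.1%, the mean 2.44 and the maximum 12. With every cell thinned to 2500 UMIs and shallower cells left out, the shares were 31.1% of 730 and 9.70% of 753 cells. The thinned shares of SSPC-2-like cells were alike, 26.6% and 26.9%, although their unthinned shares were 45.3% and 39.1%. Against these stood 2.50% and 1.12% of thinned macrophage-like cells, a type in which Npnt UMIs can be free RNA. Median depth before thinning was 5259 and 3863.5 UMIs in SSPC-1-like and 3767 and 4033.5 in macrophage-like cells. The highest Npnt level of any named cluster lay outside the 9 types, in the 33 perineurial-like control cells, with 154 UMIs in 26 cells or 896 CPM (760 to 1049).

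Egfl6 was highest in SSPC-1-like cells of both libraries, at 530 CPM (510 to 551) and 329 CPM (312 to 347). Tendon-like cells came next at 248 (221 to 277) and 184 (166 to 205), which put SSPC-1-like cells 2.14-fold (1.90 to 2.41) and 1.79-fold (1.59 to 2.01) above them. With types set cell by cell, 330 and 424 SSPC-1-like cells had 531 and 284 CPM. The 328 and 512 tendon-like cells of that typing had 432 and 230 CPM. The order was kept, but the size of this gap depended on how types were set. The Gdf10 fibroblasts followed at 25.9 and 43.4 CPM and the Pi16 fibroblasts at 20.7 and 29.7. SSPC-1-like and tendon-like cells together held most Egfl6 UMIs, 80.7% plus 9.99% in the control and 59.7% plus 15.7% in the other library. SSPC-2-like cells had 3.42 and 26.7 CPM of Egfl6. Mural-like cells had 1 and 3 UMIs in all, and lining-like control cells had 0, which allows up to 6.27 CPM. After thinning, 45.5% and 40.0% of SSPC-1-like cells had a UMI, against 0% (0 of 320 cells, which allows up to 0.938%) and 0.840% of macrophage-like cells. In the 20 chondrocyte-like control cells, 43 of 44 Egfl6 UMIs came from 1 cell.

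Itga8, the alpha subunit of the receptor for both ligands, was highest in mural-like cells, at 364 CPM (332 to 398) and 320 CPM (293 to 349). Tendon-like cells were next at 73.6 and 36.8 CPM, 4.94-fold (3.95 to 6.25) and 8.71-fold (6.77 to 11.3) below. SSPC-1-like cells held 43.0 and 23.1 CPM, SSPC-2-like cells 9.24 and 17.9, and endothelial-like cells 13.9 and 13.8. Mural-like cells therefore held 53.9% and 65.5% of all Itga8 UMIs. Thinned to equal depth, 56.1% and 53.4% of mural-like cells had an Itga8 UMI, 11.2% and 7.12% of tendon-like cells, 9.04% and 5.45% of SSPC-1-like cells, and 0% (0 of 320 cells, which allows up to 0.938%) and 0.280% of macrophage-like cells. The Pi16 fibroblasts were lowest at 0.640 and 1.12 CPM. The perineurial-like control cells, highest for Npnt, had 0 Itga8 UMIs, which allows up to 17.5 CPM.

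**Figure D1:**
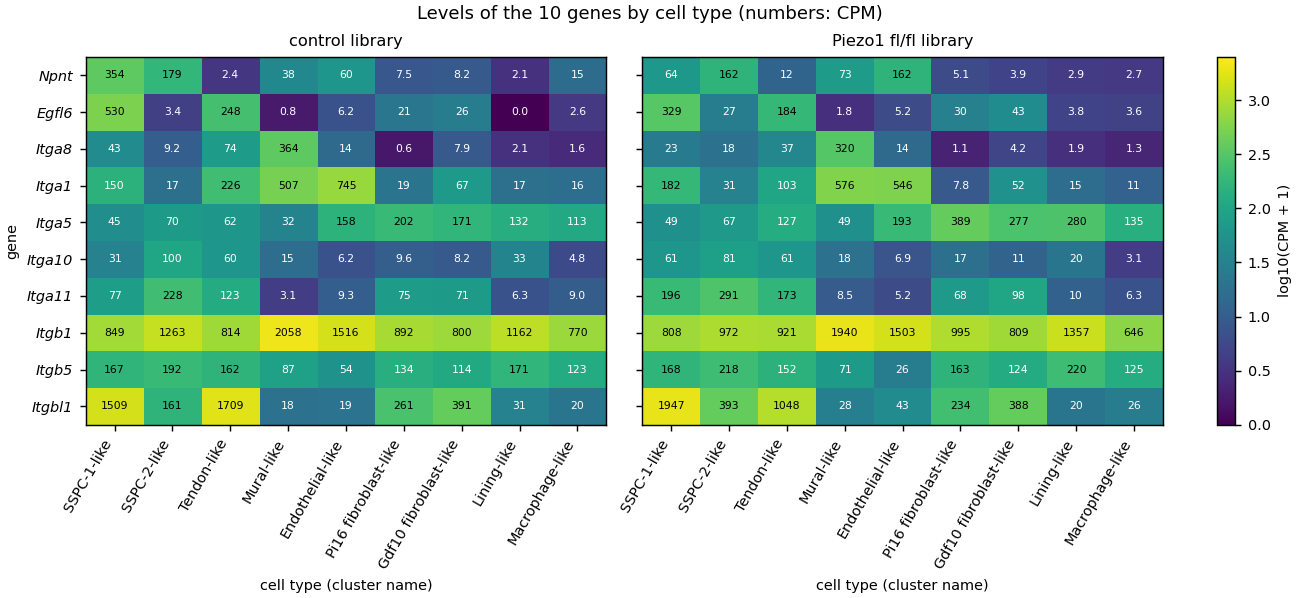
Levels of the 10 genes (rows) in the 9 cell types (columns) of the control and Piezo1 fl/fl libraries, as CPM printed in each cell and coloured by log10(CPM + 1). Lighter colours mark higher levels. Npnt is highest in SSPC-1-like cells in the control library alone, Egfl6 in SSPC-1-like and then tendon-like cells of both, and Itga8 in mural-like cells of both.

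Of the alpha subunits for collagen, Itga1 was highest in the vessel types. Endothelial-like cells had 745 CPM (680 to 814) and 546 (488 to 610), and mural-like cells 507 and 576. The order of this pair was not the same in both libraries, with endothelial-like cells 1.47-fold (1.30 to 1.66) higher in the control and mural-like cells 1.05-fold higher in the other, with an interval that includes a ratio of 1. Itga1 in SSPC-1-like cells was 150.5 and 181.5 CPM, and in SSPC-2-like cells 17.0 and 31.0. Itga10, first known from cartilage, and Itga11, known from mesenchymal cells, had the opposite tilt and were highest in SSPC-2-like cells. Itga10 there was at 100.5 and 81.4 CPM, with 30.7 and 60.7 in SSPC-1-like cells and 61.0 in tendon-like cells of the Piezo1 fl/fl library. Itga11 in SSPC-2-like cells was at 228 (216 to 240) and 291 (273 to 310) CPM, and SSPC-1-like cells had 77.5 and 196.5. Itga10 reached 274 and 349 CPM in the chondrocyte-like clusters of 20 and 27 cells.

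Itga5, the alpha subunit of the main fibronectin receptor, was highest of the 9 types in the Pi16 fibroblasts at 202 and 389 CPM. The chondrocyte-like clusters of 20 and 27 cells had 383 and 174.5. The Gdf10 fibroblasts had 171 and 277, and lining-like cells 132 and 280.5. Itga5 in SSPC-1-like cells was low in both libraries, at 44.9 and 49.4 CPM. Itgb1, the common beta subunit, was found in 94.3% and 93.2% of kept cells, and its levels ranged over the 9 types from 770 CPM in macrophage-like to 2058 in mural-like control cells, and from 646 to 1940 in the same types of the Piezo1 fl/fl library. Itgb5, whose product pairs with the subunit of Itgav and binds vitronectin, ranged over the 9 types from 54.1 CPM in endothelial-like to 192 in SSPC-2-like control cells, with 262 in the perineurial-like cluster. Its range in the other library was 25.9 in endothelial-like to 220 in lining-like cells. Itgb5 had no single leading type, the upper ones being within 1.12-fold (0.896 to 1.42) in the control and 1.01-fold in the other library.

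Itgbl1 encodes a secreted protein built of repeats like those of integrin beta subunits and is not a receptor subunit. It was at 1709 CPM in tendon-like and 1509 in SSPC-1-like control cells, and at 1048 and 1947 in the Piezo1 fl/fl library. Tendon-like cells were 1.13-fold (1.08 to 1.19) above SSPC-1-like cells in the control, and SSPC-1-like cells 1.86-fold (1.77 to 1.95) above tendon-like cells in the other library. The Gdf10 fibroblasts had 391 and 388 CPM, while mural-like, endothelial-like, lining-like and macrophage-like cells stayed between 17.8 and 43.1. Across the 10 genes, 6 had the same highest type in both libraries. The other 4 were Npnt, Itga1, Itgb5 and Itgbl1.

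The study set SSPC-1 and SSPC-2 side by side, and the 10 genes divided between them. A gene was called past 2-fold where its CPM ratio was at least 2 and it had at least 20 UMIs over both sides. Of the 10 genes, 4 were higher in control SSPC-1-like cells, where 14.9% of all genes tested were, and 2 were higher in SSPC-2-like cells, where 5.97% were. These percentages are background only, since the genes were chosen on this comparison. Egfl6 was 155-fold higher in SSPC-1-like cells, a log2 ratio of 7.28 (6.65 to 7.99), and Itgbl1, Itga1 and Itga8 were higher by log2 ratios of 3.23, 3.15 and 2.22. Itga10 and Itga11 were higher in SSPC-2-like cells, with log2 ratios of -1.71 and -1.56. Npnt lay just inside 2-fold, 1.98-fold higher in SSPC-1-like cells (1.84 to 2.15). The remaining ratios were -0.64 for Itga5, -0.57 for Itgb1 and -0.20 for Itgb5. The control SSPC-2-like cells included a finer cluster of 66 cells, whose mature osteoblast markers summed to 22120 CPM and SSPC-2 markers to 3995. It held 318 of the 1044 Npnt UMIs and 196 of the 587 Itga10 UMIs of the SSPC-2-like cells. Its part in the Npnt and Itga10 ratios was not tested.

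Past 2-fold in the Piezo1 fl/fl library were 3 genes higher in SSPC-1-like cells, where 9.51% of genes were, and 1 higher in those like SSPC-2, where 6.58% were. Egfl6 was again the gene with the largest ratio among the 10, 12.4-fold or a log2 ratio of 3.63, which ranged from 3.14 to 7.56 over the alternatives, the highest with doublets kept, and Itga1 and Itgbl1 followed with log2 ratios of 2.55 and 2.31. Npnt was here 2.54-fold higher in SSPC-2-like cells, the opposite direction from the control. Itga8 had a log2 ratio of 0.37 with an interval from -0.11 to 0.86. The median log2 ratio over the 10 genes was 0.39 in the control, beside 0.23 over all genes tested, and -0.32 in the other library, beside 0.11. The control Npnt log2 ratio was 0.77 with median-of-ratios scaling and up to 1.60 at resolution 0.8, so that other settings took it past 2-fold. In the Piezo1 fl/fl library it was -0.54 with 500 to 6000 genes, -0.51 with doublets kept and -0.71 with types set per cell, the same direction within 2-fold.

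Ligand and receptor genes were compared between mural-like cells, highest for Itga8, and SSPC-1-like cells, highest for both ligands in the control. In the control library Itga8, Itga1 and Itgb1 were past 2-fold higher in mural-like cells, with log2 ratios of 3.08, 1.75 and 1.28, where 15.7% of genes tested were. Egfl6, Itgbl1, Itga11 and Npnt were past 2-fold higher in SSPC-1-like cells, where 23.8% were. The Egfl6 ratio rested on 1 UMI in mural-like cells against 2505, a log2 ratio of -9.42 with an interval from -14.73 to -6.94. Npnt had a log2 ratio of -3.23. Itgb1 was not confined to the cells with Itga8, since SSPC-1-like cells held 15.4% of its control UMIs and mural-like cells 10.2%.

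Itga8, Itga1 and Itgb1 were in the Piezo1 fl/fl library again the 3 genes past 2-fold higher in mural-like cells (15.5% of genes), Itga8 by a log2 ratio of 3.79. Egfl6, Itgbl1, Itga11, Itga10 and Itgb5 were past 2-fold higher in SSPC-1-like cells (21.8% of genes). Egfl6 had 3 UMIs in mural-like cells against 1340, a log2 ratio of -7.49. Npnt did not separate these types, with a log2 ratio of 0.18 and an interval from -0.15 to 0.50. Itga8 and Egfl6 were highest in different types, but the SSPC-1-like cells held 23.2% and 11.7% of Itga8 UMIs and the tendon-like cells 10.5% and 8.74%. Median log2 ratios of the 10 genes were -0.96 and -0.62, beside -0.09 and -0.06 over all genes.

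**Figure D2:**
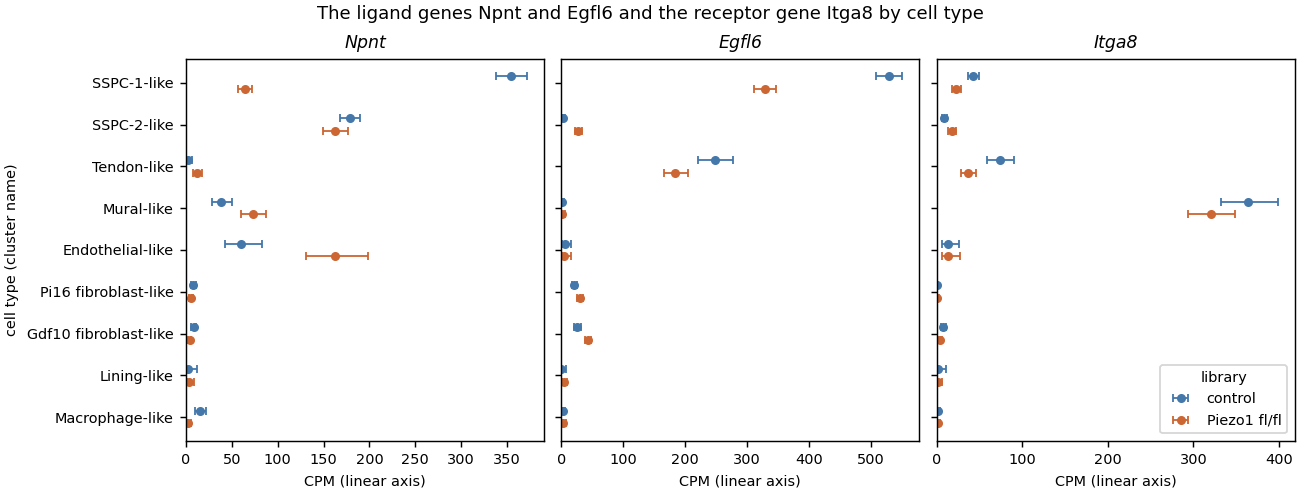
CPM of Npnt, Egfl6 and Itga8 by cell type in the control and Piezo1 fl/fl libraries, with exact 95% Poisson intervals as bars, which cover counting error only. Egfl6 peaks in SSPC-1-like cells at 530 and 329 CPM, Itga8 in mural-like cells at 364 and 320, and Npnt in SSPC-1-like cells at 354.5 in the control only.

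Co-detection in single cells was counted after thinning to 2500 UMIs. In mural-like cells, no control cell of 246 had an Egfl6 UMI, so co-detection with Itga8 could not be measured, and in the Piezo1 fl/fl library 3 of 307 cells had Egfl6 and 1 had both. Npnt and Itga8 were found together in 6.50% and 7.82% of mural-like cells, where the product of their separate shares was 4.79% and 6.61%. Mural-like cells with Itga8 nearly all had Itgb1 too, 98.6% and 99.4% of them. Itgb1 was also in 97.6% and 98.4% of all thinned mural-like cells. Itga8 and Itgb1 were together in 55.3% and 53.1%, beside products of 54.7% and 52.55%. In SSPC-1-like cells, both ligands were found together in 96 of 730 control cells, or 13.2% beside a product of 14.1%, and in 24 of 753 Piezo1 fl/fl cells, or 3.19% beside 3.88%. The ligands therefore shared cells at about the frequency that their separate shares give. Egfl6 and Itga8 met in 4.93% and 1.46% of SSPC-1-like cells, beside products of 4.11% and 2.18%. Of the SSPC-1-like cells with Itga8, 54.5% and 26.8% had Egfl6, beside 45.5% and 40.0% of all thinned SSPC-1-like cells. Npnt and Itga8 met in 29 and 2 cells, or 3.97% and 0.266%, beside products of 2.81% and 0.528%. The shares are of cells with a UMI, not of cells expressing the gene.

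Between libraries, the 10 genes and 9 types gave 90 pairs, of which 76 had at least 20 UMIs. Against the control, 8 pairs were past 2-fold higher and 7 past 2-fold lower in the Piezo1 fl/fl library. Over all genes tested, 1.6% to 8.99% were higher and 2.34% to 5.66% lower, depending on the type. The largest difference with many UMIs was Npnt in SSPC-1-like cells, 1675 and 261 UMIs, 5.53-fold lower with a log2 ratio of -2.47 (-2.66 to -2.28). It was the 1 gene of the 10 past 2-fold lower in these cells, where 5.36% of genes tested were, and Itga11 was the 1 past 2-fold higher, where 2.29% were. Itga11 had a log2 ratio of 1.34 (1.16 to 1.53). Itga10, at 0.98, lay just inside 2-fold, as did Itga8 at -0.90, and Egfl6 was at -0.69. The median over the 10 genes was 0.07, beside -0.06 over all genes.

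The SSPC-1-like cells of the libraries also differed in the markers of other types. The 6 SSPC-2 markers summed to 1420 CPM in control and 237.8 CPM in Piezo1 fl/fl SSPC-1-like cells, each from 1.06 to 733 CPM in the control and from 0 to 113 in the other, with Plekhg4 at 0. Postn was at 733 and 65.3 CPM and Tnn at 437 and 52.8. The 6 tendon markers summed to 7611 and 8011 CPM, none at 0, with Scx, the tendon transcription factor, at 54.0 and 326 CPM. The 6 SSPC-1 markers summed to 6969 and 4499 CPM, none at 0, and Col8a1 alone was at 5351 and 2713. The part of these shifts in the Npnt and Itga11 values was not tested. Among SSPC-1-like cells without any UMI of Tnn or Postn, 221 control and 677 Piezo1 fl/fl cells, Npnt was at 247 and 51.7 CPM, a log2 ratio of -2.26 (-2.55 to -1.96). That comparison was added after seeing the data. It kept 221 of 806 control and 677 of 886 Piezo1 fl/fl SSPC-1-like cells. A count of 0 depends on depth, which had medians of 5259 and 3863.5 UMIs in these types. Such a choice of cells cannot make the 2 groups alike in type, so no conclusion is drawn from it.

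With SSPC-2-like and SSPC-1-like cells summed, also added after seeing the data, Npnt was at 257 and 109 CPM, a log2 ratio of -1.24 (-1.35 to -1.13). It was the 1 gene of the 10 past 2-fold there, where 3.82% of genes were lower and 2.6% higher. The same sum gave Itga11 0.58, Itgbl1 0.70, Itga1 0.56 and Egfl6 -0.32 on the log2 scale. Npnt was past 2-fold lower in the sum, while Itga11 did not reach 2-fold there. The sum contains the SSPC-1-like UMIs given above, 1675 and 261 of its 2719 and 816 Npnt UMIs. It is therefore not separate support for the SSPC-1-like ratio. In SSPC-2-like cells alone the Npnt log2 ratio was -0.14 (-0.29 to 0.01).

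In SSPC-2-like cells Egfl6 and Itgbl1 were past 2-fold higher in the Piezo1 fl/fl library, where 4.14% of genes were, and none of the 10 was past 2-fold lower, where 2.34% were. Egfl6 had 20 and 91 UMIs, a log2 ratio of 2.96 (2.25 to 3.74), and Itgbl1 a log2 ratio of 1.29. Both directions turned when doublets were kept or with 500 to 6000 genes per cell, and that of Egfl6 also when types were set cell by cell. When clustered at resolution 1.2, 166 of the Piezo1 fl/fl SSPC-2-like cells formed a cluster with 92.1 CPM of Egfl6 and 1124 of Itgbl1. Its SSPC-1, SSPC-2 and tendon markers summed to 3577, 3290 and 3195 CPM, while the other large cluster of 390 cells had 1.57 CPM of Egfl6. Over all SSPC-2-like cells the 6 SSPC-2 markers summed to 19580 and 12030 CPM and the 6 SSPC-1 markers to 991 and 1533, none at 0. The Egfl6 and Itgbl1 values of these SSPC-2-like cells thus rested on a cluster with markers of several types, whose part in the result was not tested.

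In endothelial-like cells Npnt and Itgbl1 were past 2-fold higher in the Piezo1 fl/fl library (4.14% of genes), and Itgb5 was past 2-fold lower (3.72%). Npnt had 39 and 94 UMIs, a log2 ratio of 1.43 (0.87 to 2.00), and was detected in 10 of 119 and 19 of 95 thinned cells. The 6 endothelial markers summed to 8432 and 6938 CPM and the 6 mural markers to 2196 and 5338, none at 0. SSPC-2 markers summed to 302.9 and 224.1 CPM, with 2 of 6 at 0 in the Piezo1 fl/fl library. The part of the mural transcripts in the endothelial values was not tested. Itgbl1 had 12 and 25 UMIs and Itgb5 35 and 15, counts that leave wide intervals.

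In tendon-like cells Npnt and Itga5 were past 2-fold higher in the Piezo1 fl/fl library (5.1% of genes) and Itga8 and Itga1 past 2-fold lower (5.11%). Npnt rested on 3 and 22 UMIs, a log2 ratio of 2.27 (0.53 to 4.65), and Itga5 had a log2 ratio of 1.03. Itga1 had a log2 ratio of -1.14 and Itga8, at 92 and 70 UMIs or 73.6 and 36.8 CPM, sat on the limit. In the same cells the 6 tendon markers summed to 12350 and 7593 CPM and the 6 Pi16 fibroblast markers to 775.9 and 1179, none at 0. The 4 Schwann cell markers summed to 12.8 and 136.6, with 2 and 1 at 0, and the part of these shifts in the tendon-like values was not tested. At resolution 1.2 the Piezo1 fl/fl tendon-like cells split into 158 cells with 7.06 CPM of Itga8 and 64.5 of Itga1 and 185 cells with 69.1 and 145. The integrin alpha subunits thus varied within the tendon-like cells of 1 library by more than between libraries in the case of Itga8.

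In macrophage-like cells Npnt was lower in the Piezo1 fl/fl library, 28 and 6 UMIs with a log2 ratio of -2.46 (-4.02 to -1.16), where 5.66% of genes were lower, and none of the 10 was past 2-fold higher (2.44%). Of the 28 control UMIs, 8 came from 1 cell. This type was 1 cluster in the control and 2 in the other library, 1 of them with Spic, Vcam1 and Slc40a1 among its leading genes. Its 6 erythroid markers summed to 1.06 and 1339 CPM, with 4 and 0 at 0, and its 6 chondrocyte markers to 1080 and 12.1, with 0 and 3 at 0. SSPC-2 markers summed to 430.9 and 156.8 CPM and tendon markers to 325.4 and 121.3, none at 0. The part of these shifts in the macrophage-like values was not tested.

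Itga5 was higher in lining-like cells, 63 and 294 UMIs with a log2 ratio of 1.09 (8.99% of genes higher, 3.11% lower), while the 4 lining markers summed to 143900 and 47630 CPM. In the Pi16 fibroblasts Itga1 was lower by a log2 ratio of -1.31 (3.97% of genes lower, 1.74% higher), and Itga5 at 0.95 lay just inside 2-fold. These fibroblasts were 1 cluster in the control and 2 in the other library, 1 of them led by Slurp1 and Crabp2. Their 6 Gdf10 fibroblast markers summed to 786.9 and 276.4 CPM, none at 0. In the Gdf10 fibroblasts Npnt was lower by -1.07 (3.37% lower, 1.65% higher) on 35 and 25 UMIs, and Itga5 was at 0.70. They too were 1 and 2 clusters, and their own 6 markers summed to 6162 and 3417 CPM, none at 0. The part of these marker shifts in the lining-like and fibroblast values was not tested. Itga5 ratios near or past 2-fold upward were thus seen in lining-like, tendon-like and Pi16 fibroblast cells.

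Mural-like cells had none of the 8 genes tested past 2-fold, where 1.6% of genes were higher and 2.89% lower in the Piezo1 fl/fl library. The receptor subunit Itga8 had a log2 ratio of -0.18 and Npnt of 0.94. Mural-like cells had more mitochondrial UMIs than the other types, with medians of 12.19% and 11.9%. With a mitochondrial limit of 10% the Itga8 ratio was 0.22.

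**Figure D3:**
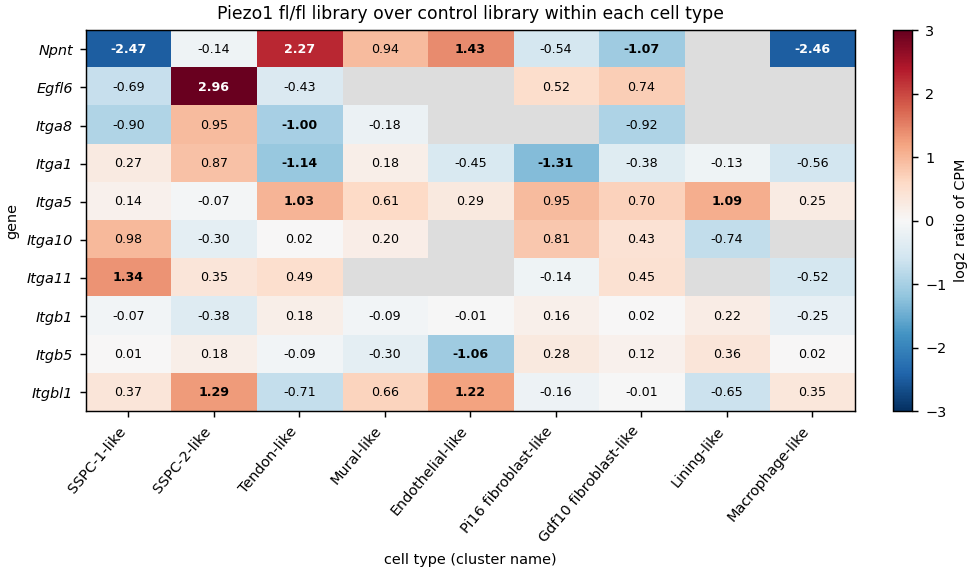
Log2 ratio of CPM, Piezo1 fl/fl over control library, for the 10 genes (rows) in 9 cell types (columns), with ratios past 2-fold in bold and pairs under 20 UMIs in grey. Npnt is lower in SSPC-1-like cells (-2.47) and higher in endothelial-like cells (1.43), and mural-like cells have no ratio past 2-fold.

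Finer clusters, at resolution 1.2, showed how the ligands varied inside the stem or progenitor types. In the control library, 527 SSPC-1-like cells had 302 CPM of Npnt and 562 of Egfl6, and 253 cells with more Tnn (1005 CPM) and Postn (1821 CPM) had 481 of Npnt and 465 of Egfl6. Of the Piezo1 fl/fl SSPC-1-like cells, 552 had 41.5 CPM of Npnt and 396.5 of Egfl6, 233 had 129 and 228, and 95 with the most tendon marker transcripts (13690 CPM) had 14.4 and 206. Of the 2 largest SSPC-1-like clusters of each library, the 1 with more Tnn had more Npnt and less Egfl6. The 3 Piezo1 fl/fl clusters of over 50 cells all had less Npnt than the 2 of over 50 cells in the control, whose remaining 26 cells had 116 CPM.

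Among SSPC-2-like control cells, Npnt was at 118 CPM in 554 cells, 212 in 170 cells and 556 (496 to 620) in a cluster of 66 cells. Those 66 cells had 889 CPM of Dmp1, an osteocyte gene, and 11080 of Bglap, the osteocalcin gene of osteoblasts. They also had the most Itga10 of these clusters, 342.5 CPM, and 0 UMIs of Itga8 (which allows up to 5.24 CPM), while Egfl6 was at 1.75 CPM. The 2 larger SSPC-2-like clusters of the Piezo1 fl/fl library had 138 and 236 CPM of Npnt. Egfl6 was under 5 CPM in the control clusters of over 50 cells, so that the ligands did not follow each other there.

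**Figure D4:**
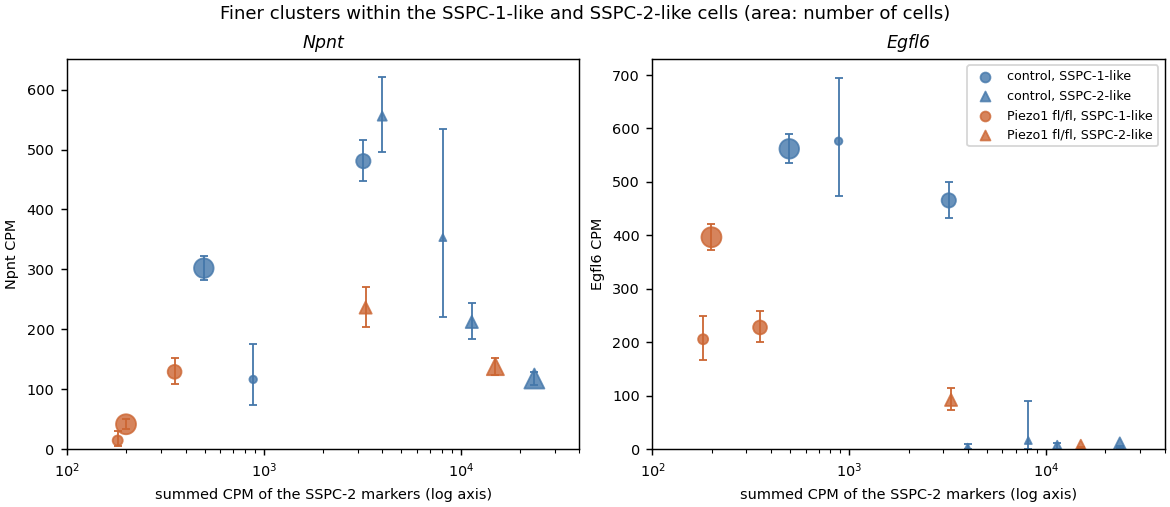
CPM of Npnt and Egfl6 in finer clusters (resolution 1.2) of SSPC-1-like cells (circles) and SSPC-2-like cells (triangles), against the summed CPM of the 6 SSPC-2 markers on a log axis, with colours for libraries and area for cell number. Npnt is at 14.4 to 129 CPM in the Piezo1 fl/fl SSPC-1-like clusters of 95 to 552 cells and at 302 and 481 in the control ones of 527 and 253 cells, and Egfl6 is highest in SSPC-1-like clusters of both libraries.

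The mural-like control cells split in the same clustering into 266 cells with 5883 CPM of Myh11, a smooth muscle myosin, and 27 cells with 27300 CPM of Rgs5 and 254 of Kcnj8, which mark pericytes. Itga8 was at 391 CPM in the first and had 0 of 90701 UMIs in the second, which allows up to 33.1 CPM. Itga1 was at 482 and 838 CPM, and Itgb1 was at 2690 CPM in the second. The Itga8 signal of this type thus lay in the Myh11-rich cells of the control library.

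The genes most like the ligands and the receptor were ranked by Pearson's r of log2(CPM + 1) over 18 points, the 9 types in 2 libraries, among 5492 genes. The points share libraries and types, so r is a description. Npnt was nearest to Epha2 (r = 0.897), Epha4 (0.865), Lmo7 (0.853), Tspan7 (0.824) and Cdc42ep3 (0.818), of which the first 2 encode ephrin receptors. Egfl6 was nearest to Herpud1 (0.939), Comp (0.933), Itgbl1 (0.930), Nkd2 (0.915) and Nox4 (0.901). Comp encodes a cartilage and tendon matrix protein, and Itgbl1 is another of the 10 genes. Itga8 was nearest to Nexn (0.951), Prkg1 (0.923), Kcne4 (0.917), Actn1 (0.916) and Map2 (0.895), of which Nexn and Actn1 encode actin-binding proteins.

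The rest of the pathway was read from 3 lists of 19 other integrin subunits, 18 other integrin ligands and 19 proteins of the adhesion complex inside the cell. Of 11 other subunits tested in the control, 5 were past 2-fold higher in SSPC-1-like cells and 1 in those like SSPC-2, and of 10 in the other library 5 and 1. Over all genes these shares were 14.9% and 5.97% in the control and 9.51% and 6.58% in the other library, which also stand beside the next lists. Those higher in SSPC-1-like cells of both libraries included Itga2, a collagen receptor subunit, with log2 ratios of 4.28 and 3.99, and Itga9 with 2.74 and 1.55. Itgb8, which pairs with the subunit of Itgav, was 3.71-fold and 6.99-fold higher. Itga6, a laminin receptor subunit, had log2 ratios of 1.84 and 1.75. Itga2 was low, at 9.95 and 18.7 CPM in SSPC-1-like and 0.514 and 1.17 in SSPC-2-like cells, so its ratios rested on few UMIs. Itgb8 was low, at 3.17 and 6.14 CPM in SSPC-1-like and 0.856 and 0.879 in SSPC-2-like cells. Itga6 was low too, at 5.50 and 7.86 CPM against 1.54 and 2.34. Of the 9 types, Itgb8 was highest in lining-like cells (134 and 89.7 CPM) and Itga2 in tendon-like cells (166 and 106). Itga6 was highest in endothelial-like control cells (719) and in lining-like Piezo1 fl/fl cells (861). The list medians were 0.89 and 0.68, beside 0.23 and 0.11 over all genes.

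Of the other integrin ligands, 3 of 15 were past 2-fold higher in control SSPC-1-like cells and 6 in those like SSPC-2, with 3 and 7 of 14 in the other library, and medians of -0.26 and -1.07. The bone matrix gene Ibsp was higher in SSPC-2-like cells by log2 ratios of -5.82 and -6.49, and Spp1, the osteopontin gene, was 29.7-fold and 78.6-fold higher there. Lama5 had log2 ratios of -3.02 and -2.02 on low levels, 0.847 and 1.23 CPM in SSPC-1-like and 6.85 and 4.98 in SSPC-2-like cells. Tnc had -1.53 and -2.23, Col3a1 -1.74 and -1.90. Fbn1, the fibrillin gene of microfibrils, was 13.4-fold and 5.02-fold higher in SSPC-1-like cells. Also higher there were the laminin gene Lama2 at 1.83 and 1.22 and the basement membrane collagen Col4a1 at 1.54 and 1.68. Of the adhesion complex, 2 of 14 and 1 of 15 were higher in SSPC-1-like cells and 2 in those like SSPC-2 in each library. The list medians were -0.25 and -0.03. Over all genes, 14.9% and 9.51% were higher in SSPC-1-like cells and 5.97% and 6.58% in those like SSPC-2. Counts of 1 or 2 genes are too few for a reading. The 2 higher in SSPC-2-like cells were Parvb at -1.44 and -1.55 and Vcl, the vinculin gene, at -1.26 and -1.39. Parvb was low, at 2.33 and 2.70 CPM in SSPC-1-like and 6.33 and 7.91 in SSPC-2-like cells.

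Between libraries, SSPC-1-like cells had 1 of 15 adhesion complex genes past 2-fold higher and 1 of 8 other subunits past 2-fold lower, beside 2.29% and 5.36% of all genes. SSPC-2-like cells had 1 of 5 other subunits and 3 of 15 ligands past 2-fold higher, beside 4.14%. Lims2, of the adhesion complex, was higher in Piezo1 fl/fl SSPC-1-like cells by 1.93 on 7 and 23 UMIs, and Itga3 was lower by -1.13. Itga3 was low in these cells, at 5.93 and 2.70 CPM. In SSPC-2-like cells Itgb3 was 2.49-fold, Lamb1 2.30-fold, Spp1 2.16-fold and Fbn1 2.02-fold higher. Itgb3 was low in SSPC-2-like cells, at 3.77 and 9.37 CPM. This type held the 166 Piezo1 fl/fl cells with markers of several types and the 66 Dmp1-rich control cells, whose part was not tested. In macrophage-like cells Itgad had 0 UMIs in control and 95 in Piezo1 fl/fl cells, a log2 ratio of at least 4.75 at a limit of 3 counts, while Itga6 was at -2.33 and Itgb7 at 1.28. The cluster and erythroid marker differences given above for this type stand beside these values too, and their part was not tested. Of the ligands there, Lama4 was at -2.06, Spp1 at 2.02 and Col4a1 at -1.14. Itga7, a laminin receptor subunit of muscle, was highest in mural-like cells, as Itga8 was, at 303 and 289 CPM. The leukocyte subunits Itgam and Itgb2 were highest in macrophage-like cells, Itgam at 683 and 652 CPM and Itgb2 at 498 and 749.

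**Figure D5:**
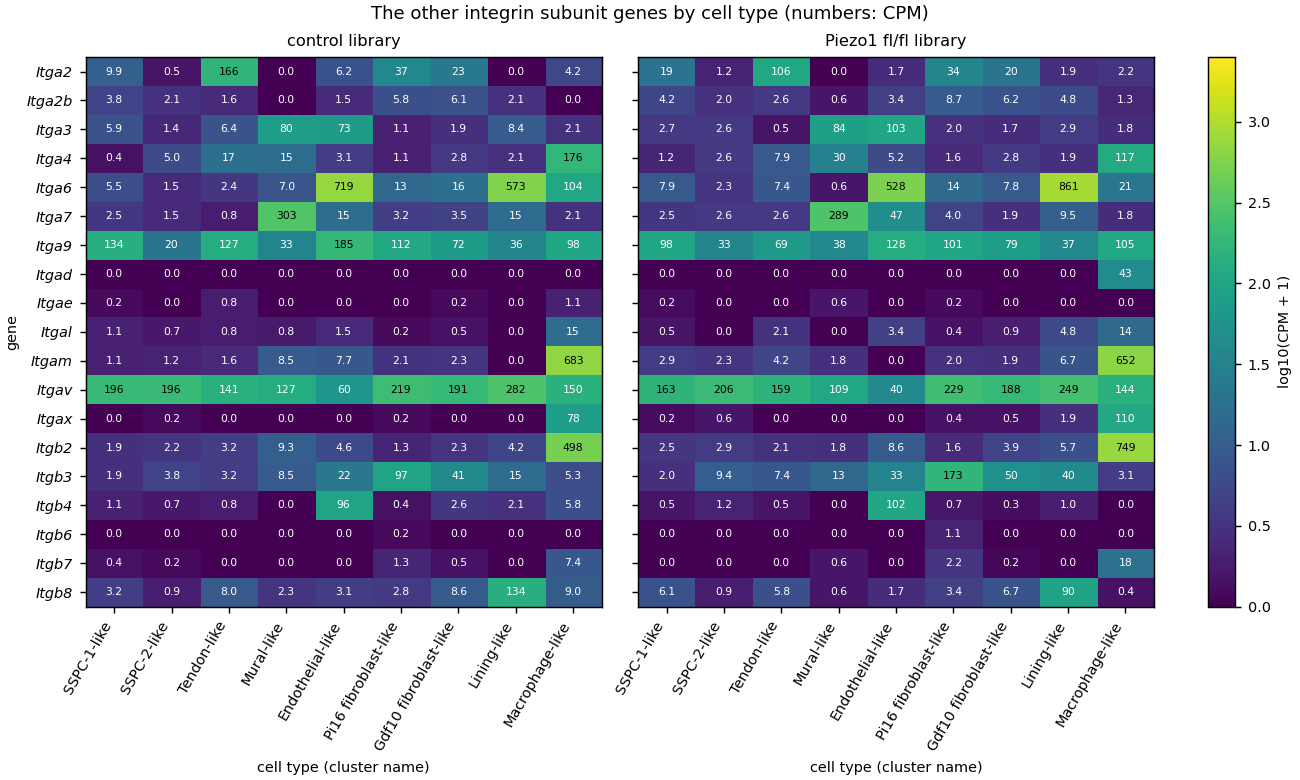
Levels of the 19 other integrin subunits (rows) in the 9 cell types (columns) of both libraries, as CPM printed in each cell and coloured by log10(CPM + 1). Itga7 is highest in mural-like cells of both libraries (303 and 289 CPM), and Itgam and Itgb2 in macrophage-like cells.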

How the data were processed

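The authors deposited, for each library, whole-number UMI counts per gene and cell, without normalization. Per the labels, fastp, UMI-tools, STAR and Seurat 4.0.3 were used. The genome build and annotation are not given in the sources used here. The members and lists were chosen with earlier results of these data known. Each library was treated alone. Kept cells had 1000 to 5000 genes and a mitochondrial share under 25%, and genes in under 10 cells dropped from clustering. Scrublet (scanpy 1.11.5, expected rate 0.05) removed 46 (0.829%) and 67 (0.988%) doublets called among 5551 and 6784 barcodes. Seurat 5.3.0 in R 4.3.3 normalized to a scale factor of 10000, took 2000 variable features without the 10 genes and list genes, and clustered on 20 of 30 principal components at resolution 0.4. Clusters were named for the marker list with the highest mean log2 ratio, given at least 3 markers in at least 10% of cells at 2 times the level elsewhere and a mean of at least 1.5. Where lists lay within 1.0, the leading 10 genes decided. These thresholds were set after the clusters were seen. In the Piezo1 fl/fl library 319 cells stayed unnamed and 87 were leukocyte-like.

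UMIs were summed per type and divided by the type's total (CPM). Levels have exact Poisson, ratios exact conditional and shares exact Clopper-Pearson intervals at 95%, and a count of 0 was read against 3 counts. UMIs carry a molecular identifier, but capture is not covered by these intervals. No test was made. The interval code (Python 3.11.15, scipy 1.17.1) was tested on simulated data. Named genes are the 10, the 5 genes most alike to Npnt, Egfl6 and Itga8 among those with at least 50 CPM in a type of both libraries, and list genes past 2-fold the same way in both libraries or with the 3 largest ratios between libraries in a type, at most 5 per direction. Genes named from the plot of levels, and marker genes in finer clusters, were chosen after their values were seen. The 12 alternatives set beforehand changed resolution, filters, doublets, typing, thinning, scaling, features and floor, and 2 were added.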

Additional observations from a re-analysis of the deposited data

How the results depend on the processing

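Of 12 alternatives, the direction turned for 3 of the ratios followed, all between libraries. Itga8 in mural-like cells, within 2-fold, went from -0.18 to 0.22 at a 10% mitochondrial limit, and the other 2 were in SSPC-2-like cells. With 500 to 6000 genes, Egfl6 went from 2.96 to -1.09 and Itgbl1 from 1.29 to -0.21. With doublets kept they were -1.21 and -0.16, and with types set per cell Egfl6 was -0.83. The cause was not tested. The number of genes past 2-fold higher in Piezo1 fl/fl SSPC-2-like than SSPC-1-like cells went from 1 to 0 under the same 3 settings, and in the control from 2 to 1 at a 10% mitochondrial limit. Pairs past 2-fold higher in the Piezo1 fl/fl library went from 8 to 5, 3 and 5 with 500 to 6000 genes, doublets kept and types per cell. For these the cause was not tested either. The Npnt ratio in SSPC-1-like cells stayed between -2.52 and -1.91, that of Itga11 between 1.25 and 1.52, and that of Egfl6 between -0.91 and -0.58. Against SSPC-2-like control cells, the log2 ratio in those like SSPC-1 stayed between 5.61 and 7.45 for Egfl6 and 0.77 and 1.60 for Npnt, and in the Piezo1 fl/fl library between 3.14 and 7.56 for Egfl6. The highest type was kept for 8 to 10 of the 10 genes in each library. With 500 to 6000 genes, a 10% mitochondrial limit, doublets kept, types per cell, thinning or a total without mitochondrial and ribosomal protein genes, Npnt in the Piezo1 fl/fl library was highest in endothelial-like cells. No paired analysis was possible because each genotype has 1 library and the labels give no replicate numbers. Depth limits low genes most, and ratios on under 30 UMIs a side carry wide intervals.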
